A study of Mus musculus with 16 samples.

Results

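The cytosolic ribosomal protein genes were taken as all rows whose symbol has the form Rpl or Rps followed by a number, together with Rplp0, Rplp1, Rplp2 and Rpsa, leaving out the Rps6k kinases and symbols that mark a pseudogene. This gave 88 of the 21878 mRNA genes in the tables, and 86 of them had at least 16 counts over all libraries and were tested among 17885 genes. The 88 genes comprised 31 small subunit genes, 46 large subunit genes, 10 paralogues or retrocopies and Rps19bp1, which encodes a protein that binds the small subunit protein S19 and is not itself a subunit. The RNA came from brain cells labelled microglia and sorted as CD11b+/CD45int from wild-type female C57BL/6 mice. In 8 mice experimental autoimmune encephalomyelitis (EAE), a model of multiple sclerosis, was induced with MOG35-55, a peptide of a myelin protein, in complete Freund's adjuvant, with 200 ng of pertussis toxin on days 0, 2 and 7, and brains were taken at the peak of disease. The 8 controls received phosphate-buffered saline (PBS), so that the adjuvant and the toxin were given to the EAE mice alone and their effects cannot be told apart from that of the peptide. For the EAE libraries, the treatment field of the labels gives a last MOG residue that runs from 55 to 62, whereas the protocol gives 55 throughout. Each mouse gave 1 library, called below by its group and number (EAE 5, PBS 2).

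The cytosolic ribosome is made of a small subunit, which reads the mRNA, and a large subunit, which joins amino acids. Each subunit is built from ribosomal RNA and from proteins that are mostly encoded by single genes and made in matched amounts. Many mRNAs for these proteins begin with a C followed by a run of pyrimidines, the 5′ terminal oligopyrimidine motif, through which the kinase mTOR and the RNA-binding protein Larp1 control their translation. That control acts largely on mRNAs already made, so that mRNA levels do not measure it.

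All 88 genes had a position in the RefSeq annotation of GRCm38.p6, spread over 19 chromosomes, with the largest number, 14, on chromosome 7. A RefSeq sequence around the start, from 250 bases before to 50 after it, was at hand for 68 of the 88. In the window from 10 bases before to 20 after the annotated start, a C followed by at least 5 pyrimidines was found in 38 of the 68 genes (55.9%) and in 24.9% of all 27025 genes with such a sequence. A C followed by 4 pyrimidines lay exactly at the start in 15 genes (22.1%), against 3.01% of all genes. The letters CTTCCG, on either strand anywhere in the 300 bases, were found in 44 genes (64.7%), against 18.8% of all genes, and AAGATGG on either strand in 10 genes (14.7%), against 7.28%. TATAAA in the 50 bases before the start was found in 1 gene. These matches describe the letters of the window and not a site in use. The run differed also between genes of the same role. It had 9 bases for Rplp2 and 8 bases for Rps9, whereas no C followed by at least 5 pyrimidines was found for Rplp0 and Rps3. As examples, the windows of 7 genes are given, with the longest run in capitals:
Rplp2 (stalk of the large subunit, chr7:141447641-141447670, + strand): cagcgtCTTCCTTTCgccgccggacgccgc
Rpl35 (exit tunnel, chr2:39005112-39005141, - strand): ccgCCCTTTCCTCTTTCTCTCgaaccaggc
Rpl27a (large subunit, chr7:109519185-109519214, + strand): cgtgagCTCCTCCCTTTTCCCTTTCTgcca
Rps9 (mRNA entry channel, chr7:3704031-3704060, + strand): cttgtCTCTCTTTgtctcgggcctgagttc
Rps6 (small subunit, chr4:86857348-86857377, - strand): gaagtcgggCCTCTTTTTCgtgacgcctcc
Rpl41 (large subunit, chr10:128549149-128549178, - strand): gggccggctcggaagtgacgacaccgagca
Rps19bp1 (no subunit, chr15:80264287-80264316, - strand): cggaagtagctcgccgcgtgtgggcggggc
Rpl27a had the longest run of the 68 genes, with 20 bases. No C followed by at least 5 pyrimidines was found in the windows of Rpl41 and Rps19bp1.

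The total counts of a library ranged from 24587443 to 30244215 after EAE and from 26031889 to 34184576 after PBS. Markers of neurons, astrocytes and oligodendrocytes each summed to more FPKM (fragments per transcript length and library size) than the 16 microglia markers in each of the 16 libraries. The microglia markers summed to 218–352 FPKM after EAE and 204–329 FPKM after PBS, whereas the neuron markers summed to 880–1146 over all libraries. The values below therefore belong to the sorted material as a whole, in which fewer cells of a type and less RNA per cell cannot be told apart. The libraries of a group were not equally alike. Over 6384 well-expressed genes other than the ribosomal protein genes, the median absolute log2 difference between 2 libraries of a group was taken. EAE 6, 7 and 8 differed from each other by 0.0508 to 0.0564, and the remaining 25 pairs of EAE libraries by 0.0815 to 0.194. PBS 5, 7 and 8 differed by 0.0479 to 0.0578, and the remaining PBS pairs by 0.0909 to 0.181. No batch is given in the labels, and these 6 libraries were treated as a possible one on their likeness within each group alone. Likeness between the groups was not measured.

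The mRNAs of the ribosomal proteins were abundant and differed widely in level. Per length, the small subunit genes ranged from 16.3 to 377 FPKM (mean of 16 libraries, median over genes 140) and the large subunit genes from 12.4 to 520 FPKM (median 107). The highest level was that of Rplp1, an acidic protein of the stalk that recruits elongation factors, with a lowest, median and highest value of 433, 495 and 716 FPKM in EAE mice and 472, 510 and 632 FPKM in PBS-treated mice. It was followed by Rps15 (377 FPKM over all libraries), Rpl41 (364 FPKM), Rps29 (332 FPKM) and Rps23 (289 FPKM), a protein of the decoding centre. The lowest subunit genes were Rpl21 (12.4 FPKM), Rps20 (16.3 FPKM), Rps15a (18.1 FPKM) and Rpl22 (18.3 FPKM). Their FPKM had been divided by long gene models of 3002, 3446, 5136 and 2343 bases, for coding lengths of 480, 357, 390 and 384 bases. The part of these lengths in their low place in the order was not tested. Over the ribosomal protein genes, the length behind the FPKM had a median of 808 bases against a coding length of 453 bases. It was more than 4 times the coding length for 8 genes, among them Rpl41 (449 against 75 bases), which was at 364 FPKM.

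**Figure D1:**
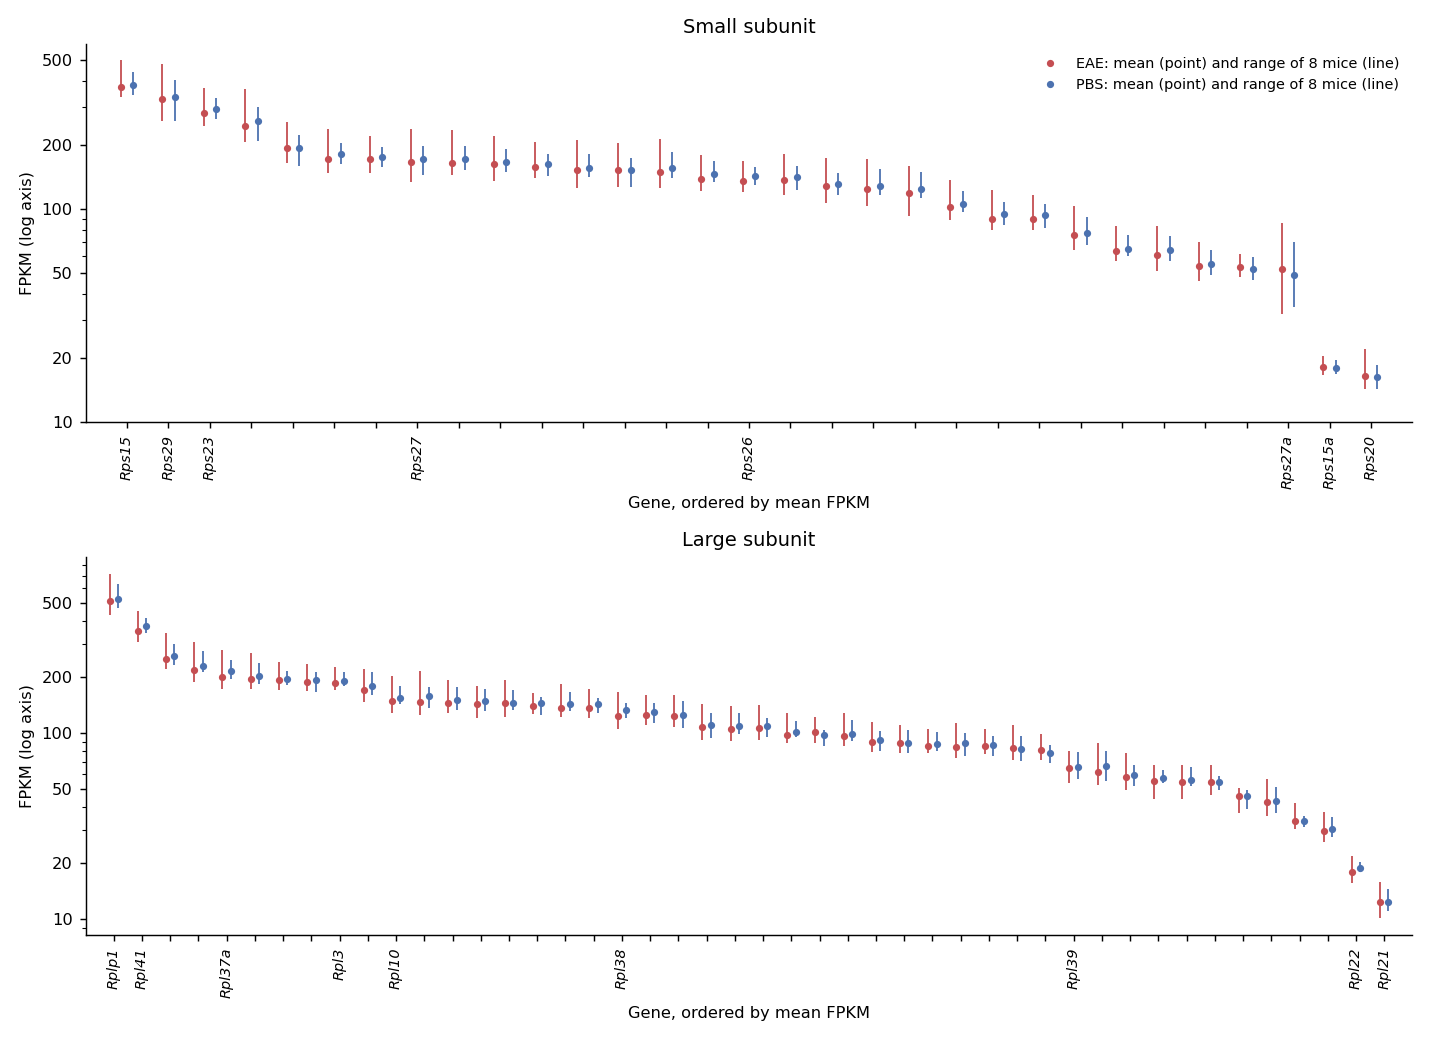
Level of each small subunit gene (top) and large subunit gene (bottom) in FPKM on a log axis, with the mean (point) and the range (line) of 8 EAE mice in red and 8 PBS-treated mice in blue, ordered by mean level and labelled for some of the genes named in the text. Rps15 at 377 FPKM and Rplp1 at 520 FPKM head their panels, and the ranges of the groups overlap for every gene.

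None of the 86 genes differed between EAE and PBS-treated mice at an adjusted p under 0.05 in edgeR's quasi-likelihood test (0 higher, 0 lower, lowest adjusted p = 0.0649), where 2.42% of all genes tested did. With the further condition of an absolute log2FC over 1, the threshold of the study, 0.117% of all genes were called. At an unadjusted p under 0.05, 3 of the 86 genes (3.49%) were lower in EAE, against 9.52% of all genes. At this threshold 0 were higher, against 1416 of all 17885 genes. DESeq2 and a fit with a term for the possible batch each called 1 gene, Rps19bp1, as lower. The differences were small and mostly of 1 sign. The log2FC was below 0 for 81 of the 86 genes (94.2%), with a median of −0.090 (68 genes and −0.039 when counts were scaled to library totals alone), whereas 47.3% of all genes tested were below 0, with a median of 0.0092. Over the 6483 genes with a log2 CPM of at least 5, the median was −0.027 and the 10th and 90th percentiles were −0.18 and 0.11. The genes of both subunits were alike in this, with 30 of 31 small subunit genes below 0 (median −0.095, range −0.14 to 0.041) and 45 of 46 large subunit genes below 0 (median −0.090, range −0.17 to 0.0056). These mRNAs vary together from library to library, so the genes are not independent of each other.

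**Figure D2:**
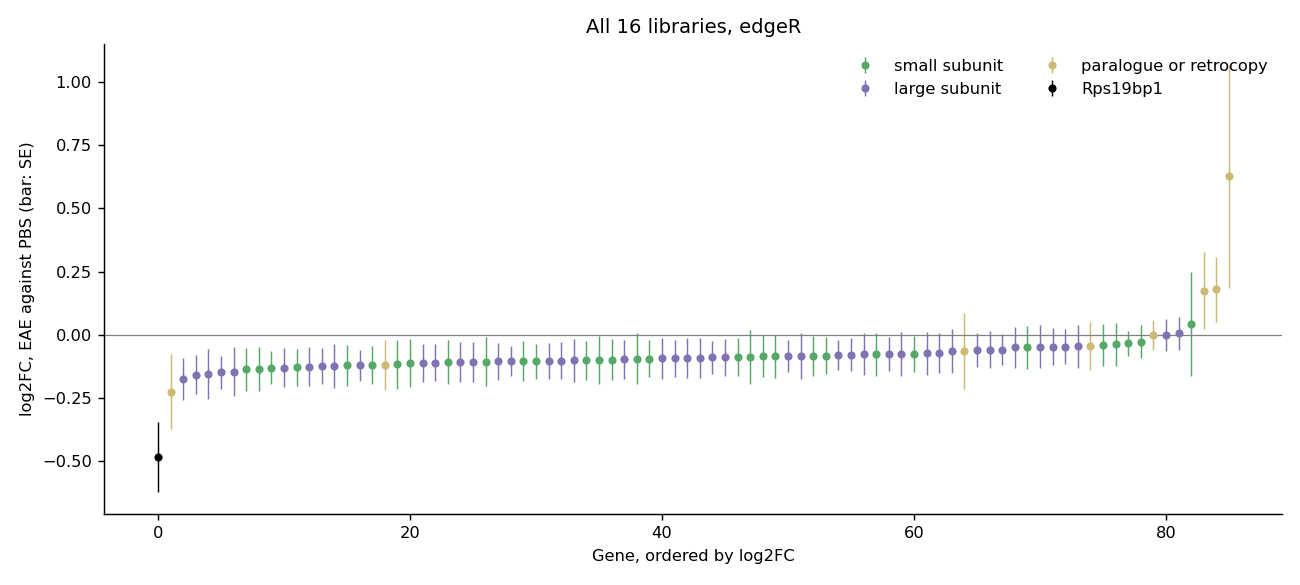
Log2FC of EAE against PBS (vertical axis, bars are SE) for the 86 genes tested, ordered by value and coloured by class. The subunit genes form a flat run between −0.17 and 0.041, with Rps19bp1 (−0.48) at the lower end and the paralogue Rpl3l (0.63) at the upper end.

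Among the subunit genes, Rpl41, Rpl37a, Rpl38 and Rps26 had the smallest p-values, and Rps19bp1 had the smallest of all 86 genes. Rpl41 encodes the smallest protein of the ribosome, with 25 residues, of which 17 are lysine or arginine. Its whole coding sequence without the stop codon is given for this composition, with the lysine and arginine codons in capitals (GENCODE M21, GRCm38, gene on chromosome 10, - strand):
Rpl41: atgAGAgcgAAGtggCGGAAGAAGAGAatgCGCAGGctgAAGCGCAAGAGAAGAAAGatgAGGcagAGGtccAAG
The lowest, median and highest levels of Rpl41 were 309, 336 and 455 FPKM in EAE mice and 347, 373 and 417 FPKM in PBS-treated mice. In 6 of the 8 EAE libraries it was below every PBS library, while EAE 5 was above all of them, so the groups overlapped. Its log2FC was −0.15 (SE 0.067, adjusted p = 0.250). For Rpl37a, the values were 174, 184 and 279 FPKM in EAE mice and 195, 213 and 249 FPKM in PBS-treated mice. Again 6 EAE libraries were below every PBS library and EAE 5 was above them, with a log2FC of −0.17 (SE 0.083, adjusted p = 0.285). Rpl38, a large subunit protein known for its part in the patterning of the mouse skeleton, had values of 106, 118 and 166 FPKM in EAE mice and 120, 134 and 145 FPKM in PBS-treated mice (log2FC −0.16, SE 0.078, adjusted p = 0.303). Rps26, which contacts the mRNA near the exit channel, had a log2FC of −0.13 (SE 0.065, adjusted p = 0.303). Upwards, the 5 genes with the smallest p-values were Rpl3l, Rps27l, Rpl32l, Rps27a and Rpl17, the only genes with a log2FC above 0, each with an adjusted p of 0.494 or more.

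The levels of these mRNAs moved together, and they differed more between mice of 1 group than between the groups. The ribosomal protein genes took 0.801%, 0.751%, 0.781%, 0.900%, 1.09%, 0.728%, 0.792% and 0.756% of the counts in EAE 1 to EAE 8 and 0.817%, 0.949%, 0.920%, 0.775%, 0.846%, 0.821%, 0.851% and 0.809% in PBS 1 to PBS 8. EAE 5 was the highest library, PBS 2, PBS 3 and EAE 4 followed, and the groups overlapped. The mean was 0.825% ± 0.119 (SD, n = 8) after EAE and 0.849% ± 0.0585 (SD, n = 8) after PBS. Summed FPKM was 10148 ± 1513 after EAE and 10465 ± 755 after PBS (SD, n = 8). Of the 86 genes, 84 were above their own 16-library mean in EAE 5, 79 in EAE 4, 80 in PBS 2 and 79 in PBS 3, but 1 was in EAE 8 and 2 were in EAE 6. EAE 5 was the highest EAE library for 79 of the 86 genes, and PBS 2 or PBS 3 was the highest PBS library for 49 and 24 of them. The ratio of summed small to summed large subunit FPKM stayed between 0.733 and 0.782 in all libraries, so the subunits moved in step. The SD of log2 CPM over 8 mice had a median of 0.20 over the 77 subunit genes in EAE mice and of 0.13 in PBS-treated mice, and it was larger in EAE mice for 76 of the 77. These SDs include EAE 5, and since the genes moved together, the 76 are not separate observations. Apart from EAE 5, the percent of counts ran from 0.728% to 0.900% after EAE, beside 0.775% to 0.949% after PBS.

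**Figure D3:**
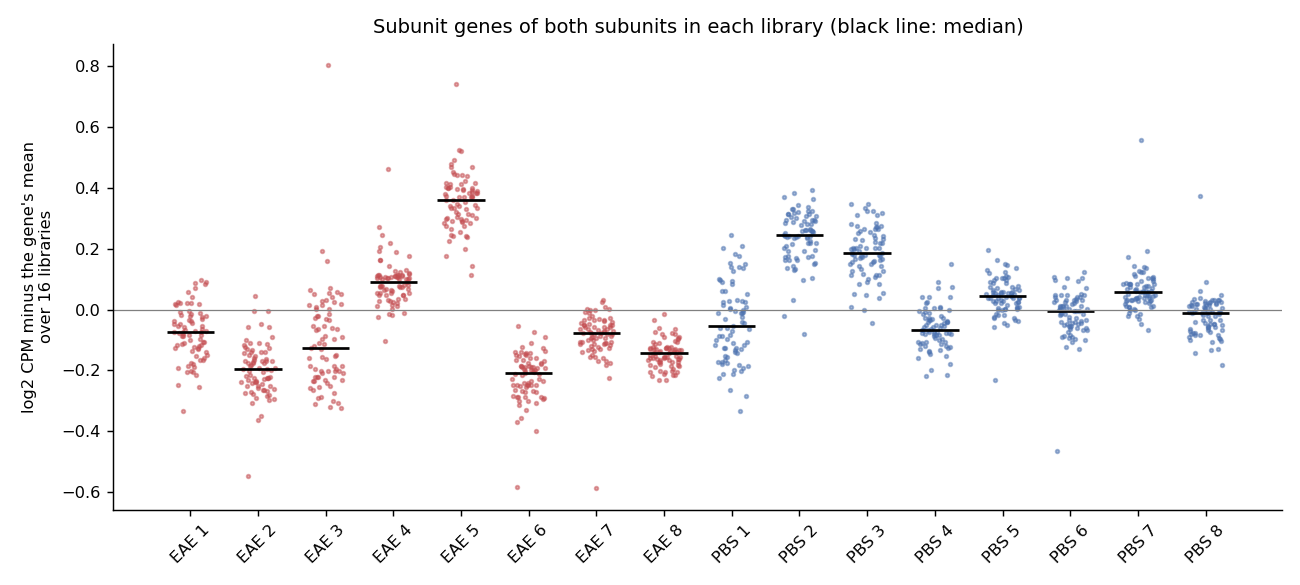
Each point is 1 of the 77 subunit genes in 1 library, as log2 CPM minus the mean of that gene over 16 libraries (EAE in red, PBS in blue, median as a black line). Nearly the whole set is shifted up in EAE 5, PBS 2 and PBS 3 and down in EAE 2, EAE 6 and EAE 8. The points far from their column, as in EAE 3, EAE 6, EAE 7 and PBS 7, are Rps27a.

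The number of calls changed when EAE 5 was left out. Without it, 5 genes (5.81%) were lower at an adjusted p under 0.05, against 3.42% of all genes, and 59 (68.6%) were lower at an unadjusted p under 0.05, against 11.6% of all genes. The 5 genes were Rpl37a (log2FC −0.26, adjusted p = 0.0201), Rpl41 (−0.21, adjusted p = 0.0244), Rpl38 (−0.23, adjusted p = 0.0334), Rpl9 (−0.25, adjusted p = 0.0416) and Rps19bp1 (−0.52, adjusted p = 0.042). The median log2FC was then −0.16, and all 77 subunit genes were below 0. Leaving out any other single library gave 0 calls. Markers of other cells moved in the same comparison. Without EAE 5, 4 of 7 astrocyte markers were called lower and 1, Gfap, was called higher (log2FC 0.47). Of 7 oligodendrocyte markers, 3 were called lower. The median log2FC of the 5 erythroid markers went from −0.067 to −0.68, with 0 called and 4 lower at an unadjusted p under 0.05. These 4 were the haemoglobin chains, whereas Alas2 did not follow (log2FC 0.021 over all libraries and 0.0093 without EAE 5). The part of these cells in the calls was not tested.

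The comparison was also made within sets of libraries. The first set held EAE 6, 7 and 8 and PBS 5, 7 and 8, chosen from these data for small differences within each group. Such a choice by itself favours low p-values, and 4147 of all 17239 genes were called there, against 433 over all 16 libraries. At an adjusted p under 0.05, 13.1% of all genes were lower in EAE, and 62 of the 86 genes (72.1%) were. Higher in EAE were 0 of the 86 genes, against 1896 of all 17239 genes. The calls comprised 25 of 31 small subunit genes and 35 of 46 large subunit genes, with a log2FC from −0.67 to −0.11 over the 62 and a median of −0.19. In these 6 libraries, 6 of 7 astrocyte markers (median log2FC −0.26), 4 of 7 oligodendrocyte markers (−0.16), 3 of 6 endothelial markers (−0.35) and 4 of 10 neuron markers (−0.089) were also called lower. Of the 16 microglia markers, 3 were called lower and 2 higher (median −0.044). The part of these cells in the 62 calls was not tested. Within the other 5 libraries of each group, 0 genes were called by the same edgeR test, where 0.0745% of all genes were. There 1 gene was lower and 1 was higher at an unadjusted p under 0.05, against 1172 lower and 720 higher of all 17461 genes tested there. The log2FC was below 0 for 68 genes, with a median of −0.048. The log2FC was lower in the first set of libraries than in the second for 82 of the 86 genes (median difference −0.12). When this difference was tested as an interaction term, a test added after the data were seen, 0 genes passed at an adjusted p under 0.05 (lowest adjusted p = 0.396), against 0.0615% of all genes. At an unadjusted p under 0.05, 4 genes (4.65%) differed, namely Rps27a, Rps27l, Rpl36al and Rps13, against 8.03% of all genes. A difference in effect between the sets was thus not detectable for single genes.

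**Figure D4:**
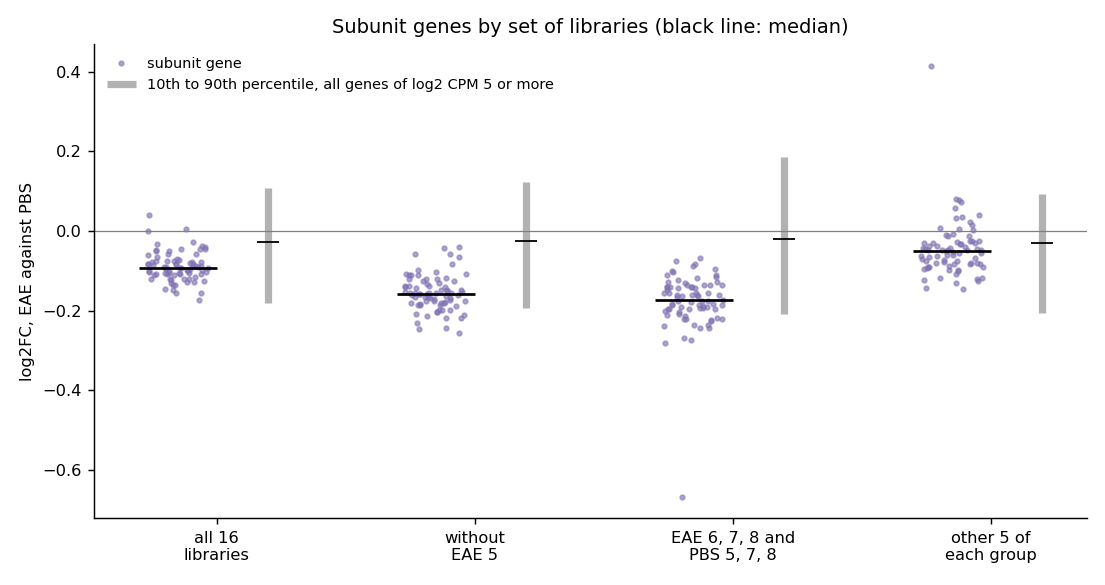
Log2FC of EAE against PBS for the 77 subunit genes (points, median as a black line) in 4 sets of libraries, beside the 10th to 90th percentile (grey bar) and the median (tick) of all genes with a log2 CPM of at least 5. The points lie below 0 in every gene without EAE 5 and within EAE 6, 7, 8 and PBS 5, 7, 8, and for 64 of 77 genes in the other 5 libraries of each group. The point far from the rest in the last 2 columns is Rps27a.

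No gene of the groups with a shared place in the ribosome was called when all 16 libraries were compared. For the stalk, the log2FC of Rplp0, Rplp1, Rplp2 and Rpl12 was −0.059, −0.075, −0.11 and −0.050, with 0 of 4 called. Rpl5 and Rpl11, which carry the 5S ribosomal RNA and bind the p53 regulator Mdm2, had a log2FC of −0.060 and −0.046. Rpl5 ranged from 46.6 to 67.8 FPKM in EAE mice and from 49.5 to 59.1 FPKM in PBS-treated mice. Of the 8 genes for proteins around the exit tunnel of the nascent chain, 7 had a log2FC below 0 and 0 were called, from −0.11 for Rpl35 to 0.0056 for Rpl17. Rps2, Rps3 and Rps9, which line the mRNA entry channel, had a log2FC of −0.077, −0.12 and −0.14. Calls were made within EAE 6, 7 and 8 and PBS 5, 7 and 8, whose choice for likeness by itself favours low p-values. There 3 of the 4 stalk genes, 1 of the pair Rpl5 and Rpl11 (Rpl11), 4 of the 8 exit tunnel genes and 3 of 3 entry channel genes were called lower. The threshold was an adjusted p under 0.05, which 13.1% of all genes passed as lower. All 17 of these genes had a log2FC below 0 in these libraries. Of 17 genes mutated in Diamond-Blackfan anaemia, a failure of red cell production in people with reduced ribosomal protein dose, all 17 had a log2FC below 0 (median −0.092) and 0 were called.

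Rps27a varied more between libraries than the median subunit gene. It encodes ubiquitin fused to the small subunit protein S27a and is a source of free ubiquitin. Its level was 39.1, 34.0, 86.1, 67.9, 82.4, 32.6, 32.2 and 46.1 FPKM in EAE 1 to EAE 8 and 39.5, 54.2, 51.7, 41.0, 40.7, 34.8, 69.9 and 61.9 FPKM in PBS 1 to PBS 8. EAE 3, EAE 5, PBS 7, EAE 4 and PBS 8 were high, and the groups overlapped. The SD of its log2 CPM was 0.60 after EAE and 0.36 after PBS. Over all libraries its log2FC was 0.041 (SE 0.21, adjusted p = 0.943). It was −0.67 within EAE 6, 7 and 8 and PBS 5, 7 and 8 (adjusted p = 0.000735 from the edgeR test), whose choice for likeness favours low p-values. Within the other 5 libraries of each group its log2FC was 0.42, with an adjusted p of 0.396 for the interaction. Its annotated gene (chr11:29545842-29548040) overlaps Clhc1 on the opposite strand, and since the strand setting of the counting is not stated, the part of that gene in these values was not tested.

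Rps19bp1 had the smallest p-value of the list. Its level was low, with a lowest, median and highest value of 3.43, 4.24 and 6.09 FPKM (70 to 132 counts) in EAE mice and 4.23, 6.19 and 7.48 FPKM (116 to 173 counts) in PBS-treated mice. In 4 EAE libraries it was below every PBS library, and in 4 PBS libraries above every EAE library. Its log2FC was −0.48 (SE 0.14, adjusted p = 0.0649). Leaving out single libraries gave an adjusted p from 0.042 (without EAE 5) to 0.136. DESeq2 called it (adjusted p = 0.0182), where 3.73% of the genes given an adjusted p were called lower. The term for the possible batch gave an adjusted p of 0.0499, where 2.94% of all genes were called lower. Its log2FC was −0.55 within EAE 6, 7 and 8 and PBS 5, 7 and 8 (adjusted p = 0.029) and −0.45 within the other 5 libraries of each group (adjusted p = 0.416).

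The 8 paralogues and retrocopies tested had a lower mean FPKM than their counterparts, and 5 of the 8 had a log2FC below 0. The gap in FPKM was large for most of them and small for Rpl22l1 (14.2 FPKM over all libraries, Rpl22 18.3 FPKM). In counts that pair lay further apart, with totals of 3552 for Rpl22l1 and 19531 for Rpl22. Their FPKM had been divided by gene models of 553 and 2343 bases, for coding lengths of 366 and 384 bases. Rpl3l, known as the form of L3 in heart and skeletal muscle, had a mean of 0.183 FPKM over all libraries, with 6 to 34 counts in EAE mice and 1 to 24 counts in PBS-treated mice. Its log2FC of 0.63 had a large error (SE 0.44, adjusted p = 0.494), while Rpl3 itself was at 171 to 227 FPKM in EAE mice and 179 to 214 FPKM in PBS-treated mice (log2FC −0.081). Rpl10l and Rpl39l, forms of L10 and L39 known from the testis, were under the filter. Rpl10l had 1 count in EAE 5 and 0 in the other libraries. Rpl39l had 1 count in EAE 4, 1 in EAE 5, 6 in PBS 7 and 0 elsewhere. Their counterparts Rpl10 (129 to 202 FPKM in EAE mice, 144 to 178 FPKM in PBS-treated mice) and Rpl39 (54.2 to 80.2 and 57.0 to 79.1 FPKM) had a log2FC of −0.11 and −0.065.

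Rps27l, a paralogue induced by p53, ranged from 3.85 to 6.44 FPKM in EAE mice and from 3.39 to 5.32 FPKM in PBS-treated mice (log2FC 0.18, SE 0.13, adjusted p = 0.502), and Rps27 from 133 to 237 FPKM and from 145 to 197 FPKM (log2FC −0.095). Rpl22l1 had a log2FC of −0.064 (SE 0.15) beside −0.12 for Rpl22 (SE 0.061, adjusted p = 0.311). Rpl7l1 had a log2FC of −0.0013 (SE 0.060) beside −0.12 for Rpl7 (SE 0.070, adjusted p = 0.378). Rpl36al had a log2FC of −0.044 (SE 0.094) beside −0.046 for Rpl36a (SE 0.068). Rpl36a and Rpl36al differ at 39 of 318 coding bases, and the longest stretch they share is 24 bases. Their first 60 coding bases are given because they show that reads of this pair can be told apart, with the 11 differing bases in capitals:
Rpl36a: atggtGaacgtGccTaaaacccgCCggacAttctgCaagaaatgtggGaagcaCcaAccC
Rpl36al: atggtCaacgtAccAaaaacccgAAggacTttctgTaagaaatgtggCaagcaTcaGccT
For the retrocopies this does not hold. The 252 coding bases of Rps27rt are identical to those of Rps27, so that reads from the coding part cannot be assigned. Rpl37rt, which RefSeq lists as protein coding and GENCODE as a pseudogene, matches the 291 coding bases of Rpl37 with 1 mismatch and shares a stretch of 248 bases with it. The bases around the mismatch are given to show how little separates the pair, with the mismatch in capitals:
Rpl37: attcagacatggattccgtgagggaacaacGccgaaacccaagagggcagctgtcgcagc
Rpl37rt: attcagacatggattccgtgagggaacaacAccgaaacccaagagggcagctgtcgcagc
Rpl32l, which GENCODE also calls a pseudogene, is 96.0% identical to Rpl32 over the aligned coding bases and lies within Map7 on the same strand. The values of these copies are therefore uncertain. They were 8.92 to 17.2 FPKM in EAE mice and 9.45 to 16.6 FPKM in PBS-treated mice for Rps27rt (log2FC −0.22, SE 0.15). For Rpl37rt they were 13.9 to 21.7 FPKM and 14.97 to 21.0 FPKM (log2FC −0.12, SE 0.098, beside −0.091 for Rpl37). For Rpl32l they were 3.76 to 6.80 FPKM and 3.51 to 6.70 FPKM (log2FC 0.17, SE 0.15, beside −0.096 for Rpl32).

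Lists of genes that work with the ribosomal proteins were read beside them, with no test between lists. Among subunit genes that the symbol rule misses, Fau encodes the small subunit protein S30 and Rack1 a scaffold on the small subunit. Fau ranged from 66.9 to 116 FPKM in EAE mice and from 73.5 to 97.1 FPKM after PBS, and its log2FC was −0.17 (SE 0.099, adjusted p = 0.389). The log2FC of Rack1 was −0.091 (SE 0.075, adjusted p = 0.573). Of 13 translation factors and related genes with terminal oligopyrimidine mRNAs, 12 had a log2FC below 0 (median −0.093) and 0 were called, with the elongation factor Eef1a1 at −0.093 and Eef2 at −0.13. Within EAE 6, 7 and 8 and PBS 5, 7 and 8, whose choice for likeness favours low p-values, 9 of the 13 were called lower, against 13.1% of all genes. All 13 had a log2FC below 0 there. The 77 genes of the mitochondrial ribosome had a median log2FC of −0.041, with 52 below 0 and 0 called. The 25 genes of ribosome biogenesis, which make and assemble ribosomal RNA in the nucleolus, had a median of 0.018, with 15 above 0 and 0 called. Of 17 genes of growth control, 1 (5.88%) was called, against 2.42% of all genes. It was Mtor, the kinase that controls translation of these mRNAs, at 29.0 ± 1.45 FPKM in EAE mice and 31.8 ± 1.84 FPKM in PBS-treated mice (SD, n = 8; log2FC −0.18, SE 0.045, adjusted p = 0.0312 from the edgeR test). A link between Mtor and the levels of these mRNAs was not tested.

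Markers of some other cells were also high in libraries with much ribosomal protein mRNA. The 5 erythroid markers summed to 885 FPKM in EAE 5, 544 in PBS 2, 368 in PBS 1, 349 in EAE 4 and 311 in PBS 3, and to 120 to 256 FPKM in the other libraries. Of these markers, 4 are haemoglobin chains, and Alas2 ranged only from 11.5 to 17.9 FPKM in EAE mice and from 9.62 to 18.2 FPKM in PBS-treated mice. The astrocyte markers summed to 1677 FPKM in EAE 5, 1516 in PBS 2, 1493 in EAE 4 and 1454 in PBS 3, the 4 libraries highest in ribosomal protein mRNA, and to 1105 to 1410 FPKM in the others. Genes under 1 kb other than ribosomal protein genes had a median deviation (log2) of 0.13 in EAE 5, 0.10 in EAE 4, 0.045 in PBS 2 and 0.016 in PBS 3, the last below PBS 6 (0.033) and PBS 5 (0.025). The neuron markers summed to 880 FPKM in EAE 5, the lowest of the 16 libraries, and to 1146 FPKM in PBS 2, the highest. Over all libraries, 6 of the 7 astrocyte markers had a log2FC below 0 (median −0.20), as did 9 of the 10 neuron markers (median −0.14), with 2 of these called, and 6 of the 7 oligodendrocyte markers (median −0.13). The astrocyte marker Gfap was called in the opposite direction (log2FC 0.50, adjusted p = 0.0312 from the edgeR test). The 8 neutrophil markers were all above 0 (median 1.31, 4 called). The 16 microglia markers had 14 above 0 (median 0.16), and Trem2 and Itgam were called. The part of these cells, and of gene length, in the level of ribosomal protein mRNA was not tested.

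**Figure D5:**
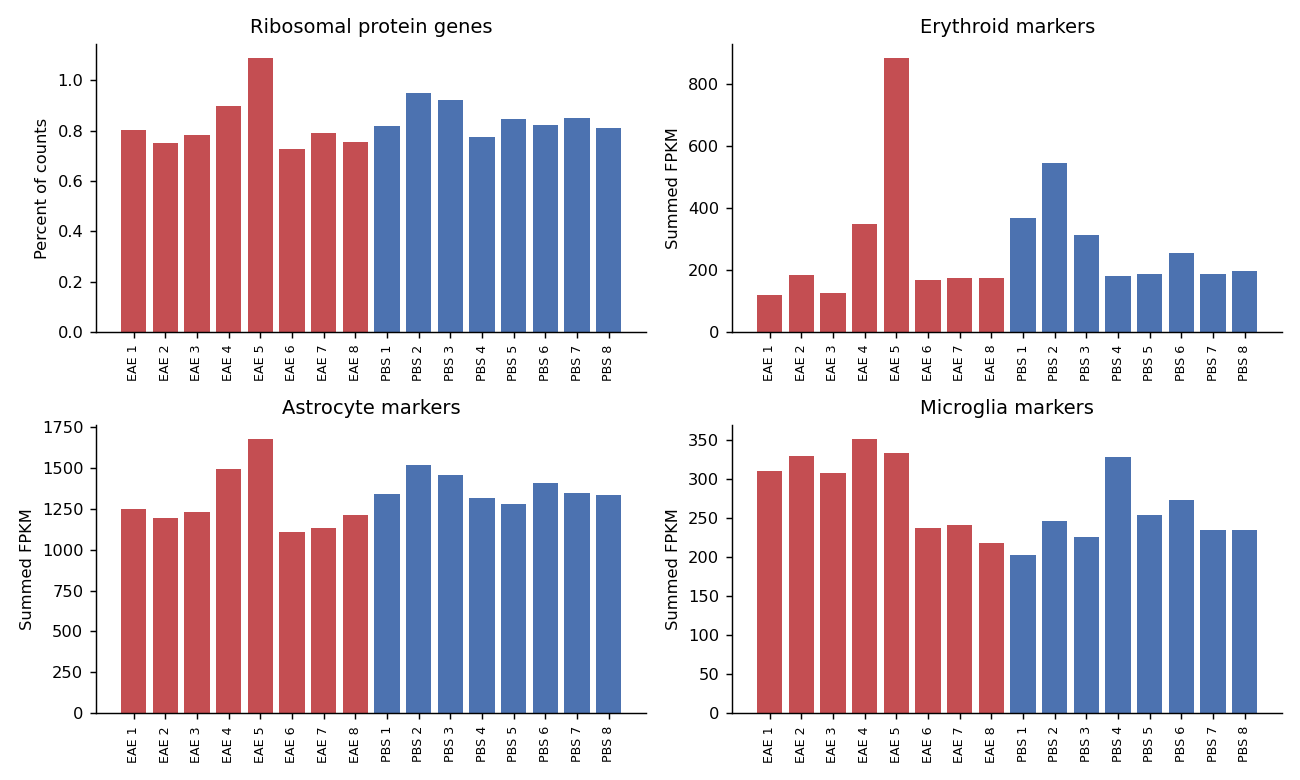
Percent of counts in the ribosomal protein genes and summed FPKM of erythroid, astrocyte and microglia markers in each library (EAE in red, PBS in blue, bars start at 0). EAE 5 is highest in the first 3 panels, at 1.09%, 885 FPKM and 1677 FPKM, while the microglia markers are highest in EAE 4.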

How the data were processed

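Sorted cells labelled microglia from 16 mice, 8 with EAE and 8 given PBS, were profiled by RNA-seq, 1 library each. According to the methods and the submitters' processing notes, the authors depleted ribosomal RNA, sequenced stranded paired-end libraries, aligned reads to GRCm38 with HISAT2 (2.1.0), used StringTie for assembly and HTSeq (0.11.2) for counting. The strand setting of the counting is not given in the sources used here. The tables the authors deposited hold raw counts and FPKM values of mRNAs, and 0 columns of samples were left unused.

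Groups and replicate numbers came from the labels. Counts were tested with edgeR (4.0.16, R 4.3.3) by the quasi-likelihood test with TMM factors on genes with at least 16 counts in all, condition as the only term, and Benjamini-Hochberg adjustment over all genes. A gene was called at an adjusted p under 0.05. The log2FC is EAE against PBS, SE is the log2FC over the square root of F, and log2 CPM is from TMM-scaled counts. The FPKM values, scaled to library totals, describe levels. Alternatives comprised other scaling factors and filters, DESeq2 (1.42.0), limma (3.58.1) on counts and on log2(FPKM + 1), the replicate block, a possible batch and each library left out. The code was tested on simulated data.

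The members and lists were chosen with earlier results of these data known. The genes named with values are the 5 smallest p-values in each direction, the 5 highest and 5 lowest FPKM, the paralogues beside their counterparts, the lists by place in the ribosome, Rps19bp1 and the genes under the filter. Rpl21, Rps20, Rps15a, Rpl22 and Rpl9 were named after their values were seen, as were Rps13 and the class of Rpl32l and Rpl37rt. Of the other lists, genes called are named, with Fau, Rack1, Eef1a1 and Eef2 added as examples and Alas2 added after its values were seen. Intervals between mice are SDs, and depth is the total count per library. Sequences came from RefSeq (GRCm38.p6) and GENCODE M21 (GRCm38). Some genes are not reported by name here.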

Additional observations from a re-analysis of the deposited data

Results flagged for a closer look

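For 42 tested genes named in the text, and for the summed level, the percent of counts and the median deviation of all members, each group of 8 mice was checked for a value far from the rest by Dixon's ratio. Chance alone gives such a value in about 1 group in 20, and 10 of 90 groups had one. Since these mRNAs move together, the groups are not independent. In 8 of the 10 cases the value was the highest and that of EAE 5. It was 343 FPKM for Rpl26, 193 FPKM for Rpl32, 279 FPKM for Rpl37a, 160 FPKM for Rplp0, 497 FPKM for Rps15, 237 FPKM for Rps27, 480 FPKM for Rps29 and 123 FPKM for Rps3. Among PBS-treated mice, Rpl35 was far above the rest in PBS 2, at 212 FPKM. In EAE 6, Rpl36a was far below the rest, at 37.3 FPKM.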

How the results depend on the processing

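The number of ribosomal protein genes lower in EAE at an adjusted p under 0.05 was 0 in the main comparison, 1 with DESeq2, 1 with a term for the possible batch and 62 within EAE 6, 7 and 8 and PBS 5, 7 and 8, and from 0 to 5 when single libraries were left out, with 5 without EAE 5. The median log2FC was below 0 in every alternative run, from −0.18 (within EAE 6, 7 and 8 and PBS 5, 7 and 8) to −0.039 (library totals), and from −0.16 (without EAE 5) to −0.059 (without PBS 2) when single libraries were left out. Over all genes, scaling to library totals gave 226 higher and 103 lower calls against 118 and 315, and leaving out single libraries gave 144 to 1317 calls. With the replicate block, 0 ribosomal protein genes were called, with a median of −0.098 and 517 calls over all genes. Over all genes, the correlation of same-numbered libraries, as deviations from the group means, ran from −0.12 to 0.38 and exceeded 0.1 in 3 of 8 pairs. For 3 of the 8 EAE libraries, the PBS library of the same number was the best correlated. Whether the replicate numbers pair the mice cannot be told from these values.

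Signs turned for some genes, and the cause was not tested. They were not all near 0, with a log2FC over all 16 libraries of 0.18 for Rps27l and 0.17 for Rpl32l. With library totals, the log2FC was 0.0051 for Rpl11, 0.0017 for Rpl12, 0.0052 for Rpl36a, 0.0081 for Rpl36al and 0.050 for Rpl7l1. Among the 10 libraries outside the possible batch, it was 0.015 for Rpl11, 0.028 for Rpl22l1, −0.0080 for Rpl32l, 0.0027 for Rpl36a, 0.13 for Rpl36al, 0.030 for Rpl7l1, 0.0049 for Rps27 and 0.0064 for Rps29. Within EAE 6, 7 and 8 and PBS 5, 7 and 8 it was −0.12 for Rpl17, −0.67 for Rps27a and −0.25 for Rps27l. With limma on log2(FPKM + 1), with or without a filter, it was 0.0037 for Rpl36a, 0.0067 for Rpl36al and 0.044 for Rpl7l1, and with a pseudocount of 0.1 it was 0.0038, 0.0068 and 0.048. Rpl7l1 was at 0.018 with upper-quartile factors and 0.0039 with filterByExpr. Rps27a was at −0.024 with the replicate block and −0.036 with limma-voom. When single libraries were left out, the log2FC ranged from −0.041 to 0.035 for Rpl17, from −0.19 to 0.013 for Rpl22l1, from −0.081 to 0.0046 for Rpl36al, from −0.024 to 0.019 for Rpl7l1 and from −0.091 to 0.13 for Rps27a.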
